A study of Mus musculus with 6 samples.

Results

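The RNAs of 9 RNA-binding proteins that share targets with HuR were followed through the cell classes of the mouse small intestinal mucosa: Zfp36, Zfp36l1, Zfp36l2, Hnrnpd, Khsrp, Tia1, Tial1, Pum2 and Celf1. They were taken by gene symbol and are 9 of the 32285 genes counted. HuR, the product of Elavl1, binds U-rich and AU-rich stretches of mRNA. Droplet single-cell RNA sequencing had been run on 3 control littermates and 3 mice labelled IE-HuR-/-. In the latter, floxed HuR (HuR fl/fl) was crossed with a Cre driven by the villin promoter, so that the deletion is directed to the intestinal epithelium and not to the immune or connective tissue cells caught with it. The labels give the controls as wild-type, whereas the study's methods give them as littermates that carried floxed HuR without Cre. The labels also give normal feeding for both groups, whereas the methods state that food was withheld for a day before experiments, and which of these held for the 6 libraries is not known.

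AU-rich elements are stretches of the 3′ untranslated region (3′ UTR), built around the pentamer AUUUA, that set how long an mRNA lasts and how well it is translated. HuR generally prolongs the life of the mRNAs it binds. The zinc finger proteins of the Zfp36 family and KSRP recruit deadenylases and other decay enzymes to such mRNAs, AUF1 (encoded by Hnrnpd) can destabilise or stabilise them, and TIA1 and TIAR (encoded by Tial1) hold back their translation. Pumilio proteins read a different motif, UGUANAUA, and CELF1 (CUGBP1) prefers GU-rich elements; both can act on mRNAs that HuR also binds. Several of these proteins bind the mRNAs that encode them, so their own 3′ UTRs are shown first.

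The heptamer UAUUUAU, the core of the Zfp36 family's preferred site, occurred 3 times in the 3′ UTR of Zfp36 (774 bases), 3 times in that of Zfp36l1 (1835 bases) and 3 times in that of Zfp36l2 (1822 bases). Of all 20518 protein-coding genes with a 3′ UTR of at least 30 bases, 26.4% held it at least once. Among 3′ UTRs within 10% of the same length, the share was 19.97% for Zfp36, 39.6% for Zfp36l1 and 38.8% for Zfp36l2. The median count at these lengths was 0 in each case. Tia1, Tial1, Pum2 and Celf1 each held it 1 time, and Hnrnpd and Khsrp held none. Among 3′ UTRs of like length the shares were 56.8% for Tia1, 51.85% for Tial1, 52.9% for Pum2 and 74.55% for Celf1. For Hnrnpd and Khsrp they were 71.8% and 36.2%. Only the sense strand was searched, overlapping matches were counted separately, and each UAUUUAU also contains an AUUUA, which 63.5% of the genes held. UGUANAUA was found 2 times in Pum2, 1 time in Tial1 and in none of the other members, against 22.4% of all genes, a share not matched for length. The 30-base window richest in these motifs is given for the members whose RNA differed most between the labels, and for Elavl1. The 3′ UTR of Elavl1 (4218 bases) held 8 UAUUUAU and 17 AUUUA. Among 3′ UTRs of like length, 62.6% held UAUUUAU, with a median count of 1. Capitals mark AUUUA.
Zfp36: gggcccuuuAUUUAugacgacuuuAUUUAu
Zfp36l1: AUUUAacuuaucaaaacguAUUUAuugcca
Zfp36l2: aacuAUUUAacuuAUUUAuuaucuugugaa
Tia1: ccagauacaauguAUUUAUUUAaaagauuc
Tial1: ggaaaaugaaaauAUUUAuuuuaaaaauug
Elavl1: uuAUUUAUUUAUUUAUUUAuuuuuAUUUAu
In the mm10 (GRCm38) build these lie at chr7:28376962-28376991 on the minus strand, chr12:80108428-80108457 on the minus strand, chr17:84184914-84184943 on the minus strand, chr6:86430466-86430495 on the plus strand, chr7:128442423-128442452 on the minus strand and chr8:4285777-4285806 on the minus strand, all in annotated 3′ UTR exons. A match is a description of the annotated sequence and was not tested as a binding site.

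The 6 libraries held 60706 barcodes and 428980031 UMIs (unique molecular identifiers, 1 per captured RNA molecule), with 59518012 to 91818560 UMIs each. Cells were classed by marker genes, and UMIs were summed over the cells of a class within each library, so that the replicate is the library. In all, 23752 cells fell into 12 classes, among them 14779 enterocyte-like, 5815 T or NK-like, 1069 goblet-like and 1000 erythroid-like cells, so that a tissue labelled as epithelium also held lymphocytes and erythroid cells by their markers. Another 7013 barcodes above the minimum depth carried no class and were left out. Of 60271 distinct barcode sequences, 435 occurred in more than 1 library. Levels are given in CPM, a gene's UMIs scaled to a total of 1000000 UMIs for the class in that library. Unless stated otherwise, log2 fold changes are after a further scaling of these totals (TMM, described below). They can thus differ from the ratio of the CPM printed beside them. The labels name no batch, and the label and any batch between libraries cannot be told apart where they coincide.

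RNA of the targeted gene was not lower in the enterocyte-like cells labelled IE-HuR-/-. Elavl1 stood at 28.5, 29.9 and 28.0 CPM in the enterocyte-like cells of the control libraries and at 28.9, 29.0 and 30.2 CPM in those labelled IE-HuR-/-, so the groups overlapped. After scaling the log2 fold change was 0.23 ± 0.05 (SE; adjusted p = 0.000137, higher in libraries labelled IE-HuR-/-), and without scaling it was 0.027 (adjusted p = 0.647). Summed over whole libraries it was at 32.1 to 34.4 CPM in controls and, without overlap, at 34.9 to 37.2 CPM under the IE-HuR-/- label. Such sums mix the classes, and Elavl1 was higher in T or NK-like (77.1 CPM) than in enterocyte-like cells (29.1 CPM). In barcodes under 1000 UMIs, Elavl1 was at 42.6, 50.7 and 41.9 CPM in controls. There it was lower under the IE-HuR-/- label, at 39.3, 38.9 and 29.4 CPM, without overlap. The share of all genes without overlap was not worked out for either. The labels also did not overlap for Elavl1 in B or plasma-like cells, where it was higher under the IE-HuR-/- label, and in myeloid-like cells, where it was lower. These rest on 84 and 62 UMIs in all, and 26.6% and 13.7% of all genes tested in these classes did not overlap. Elavl1 did not pass the test in any class other than enterocyte-like. For mice with this deletion, the study reports by immunostaining that HuR protein was nearly lost from epithelial cells. It also describes HuR as undetectable in their small intestinal and colonic mucosa. Protein was not measured in these libraries, so all 9 members below are compared between labels and not between measured HuR levels. A count per gene does not show which part of the RNA was read, and the extent of the floxed segment was not given in the sources used here.

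**Figure D1:**
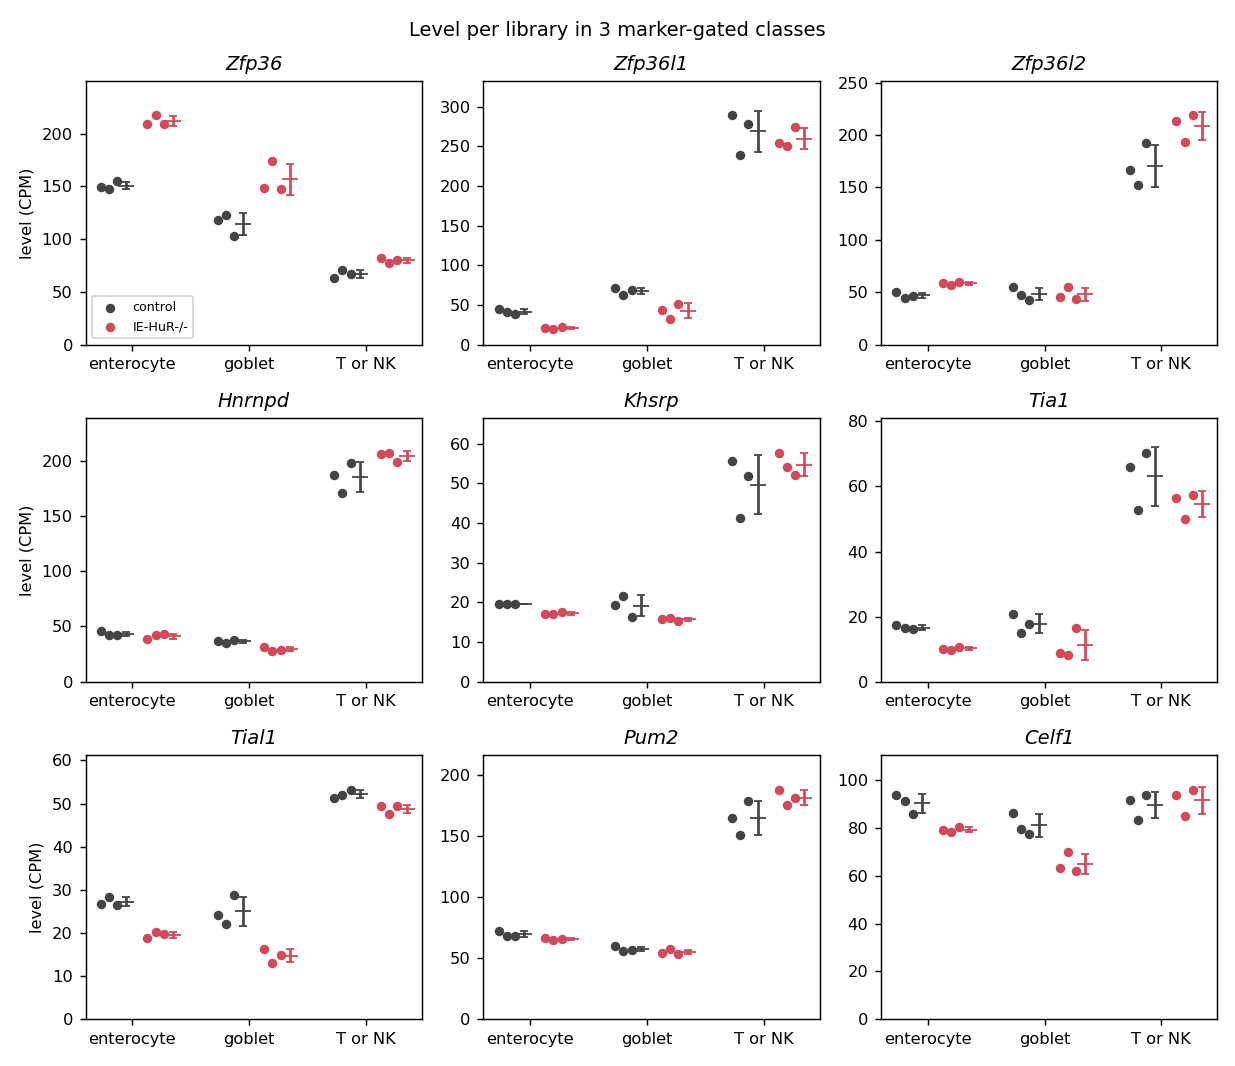
Level of each member per library, in CPM, in enterocyte-like, goblet-like and T or NK-like cells; points are libraries, the dash and bar beside them the mean and SD of 3. Zfp36 rose from 150.7 to 211.9 CPM in enterocyte-like cells while Zfp36l1 fell from 41.5 to 20.7 CPM, and Zfp36l1 stayed between 239 and 289 CPM in T or NK-like cells.

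The 3 Zfp36 family RNAs did not move together in enterocyte-like cells. Zfp36, which encodes tristetraprolin, an mRNA decay factor made rapidly after stimulation, stood at 149.7, 147.6 and 154.7 CPM in the controls and at 209.1, 217.2 and 209.4 CPM in the libraries labelled IE-HuR-/-. The groups did not overlap, and the RNA was higher under the IE-HuR-/- label by 0.69 ± 0.04 on the scaled log2 scale (SE, n = 3 per label; adjusted p = 2.21e-18). Zfp36l1, a relative known for roles in lymphocyte development and differentiation, went the other way. It was at 44.7, 40.8 and 39.0 CPM in the controls and at 20.5, 19.7 and 21.8 CPM in libraries labelled IE-HuR-/- and thus under every control in each of them, with a log2 fold change of -0.81 ± 0.05 (adjusted p = 6.72e-17). Zfp36l2, a close relative of Zfp36l1, had 49.9, 44.9 and 46.2 CPM in the controls and 58.8, 57.2 and 59.8 CPM under the other label. Again no library overlapped, and the log2 fold change was 0.52 ± 0.05 (adjusted p = 5.83e-13).

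Among the remaining members, the RNAs of the 2 translational silencers fell and the others moved little. Tia1 was at 17.4, 16.4 and 16.2 CPM in the controls and at 10.2, 9.83 and 10.7 CPM in the libraries labelled IE-HuR-/-. The groups did not overlap, and the log2 fold change of -0.50 ± 0.06 passed the test (adjusted p = 4.29e-09). Tial1, which encodes the related protein TIAR, was at 26.8, 28.4 and 26.5 CPM against 18.8, 20.1 and 19.7 CPM, a log2 fold change of -0.28 ± 0.05 (adjusted p = 2.33e-05). For Hnrnpd the groups overlapped, at 42.2 to 45.7 CPM in the controls and 38.6 to 43.0 CPM under the IE-HuR-/- label, while the scaled log2 fold change of 0.13 passed the test (adjusted p = 0.0252). Pum2 lay at 67.9 to 72.3 CPM in the controls and, without overlap, at 64.4 to 66.1 CPM in the others, with a scaled log2 fold change of 0.12 (adjusted p = 0.0226). In both of these members the unscaled level and the scaled fold change pointed in opposite directions, and without scaling the values were -0.08 for Hnrnpd and -0.09 for Pum2, neither passing the test. Khsrp, a decay-promoting KH-domain protein's RNA, had a log2 fold change of 0.02 (95% interval -0.09 to 0.13), and Celf1 one of 0.01 (95% interval -0.07 to 0.10).

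In enterocyte-like cells 7 of the 9 members passed the test, 4 higher and 3 lower under the IE-HuR-/- label, where 60.3% of the 12333 genes tested passed, 30.0% higher and 30.3% lower. The labels did not overlap in CPM for 8 members, against 69.3% of all genes tested. Both counts are thus close to the background. Scaling (TMM, which centres the bulk of genes) shifted the median of all genes by about 0.2, from -0.21 without it to -0.01 with it. Without scaling 1801 genes were higher and 6344 lower, against 3704 and 3734 with it; Zfp36 (0.49), Zfp36l2 (0.32), Zfp36l1 (-1.01), Tia1 (-0.70) and Tial1 (-0.48) kept direction and call, whereas Khsrp (-0.18) and Celf1 (-0.19) were then called lower.

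RNA of other cell types in the enterocyte-like class was measured by their markers. Zfp36l1 was higher in T or NK-like cells (268.8 CPM in controls) than in enterocyte-like cells. All 17 T or NK markers together stood in enterocyte-like cells at 0.0996 to 0.289% of their level in T or NK-like cells, a share that would carry 0.238 to 0.793 CPM of Zfp36l1. Worked out in the same way, the markers of the other classes rich in Zfp36l1 would carry at most 0.176 CPM from B or plasma-like, 0.437 CPM from plasmacytoid dendritic-like and 0.0643 CPM from fibroblast-like cells. Markers of myeloid-like cells, the class with the highest mean of Zfp36, stood at 0.601 to 1.41%, which would carry 1.36 to 3.79 CPM of Zfp36. The part of RNA from other cells in the label differences was not tested.

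The label difference was also read within parts of the villus. Cells in which villus-tip markers took 1% or more of the UMIs made up 50.5, 53.2 and 54.6% of the enterocyte-like class in controls and 49.4, 44.3 and 41.2% in libraries labelled IE-HuR-/-. Split at that line, a choice made after seeing the data, Zfp36 was higher under the IE-HuR-/- label in both parts, by 0.82 on the log2 scale in the cells above it and by 0.75 in those below. Zfp36l1 was lower in both, at -1.07 and -0.68. Zfp36l2 rose by 0.74 above and by 0.30 below, and Tia1 had -0.71 above and -0.36 below. Tial1 had -0.30 and -0.22. The 5 RNAs thus passed the test on either side of the line, while the difference between the sides was not tested.

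Zfp36 belongs to the early response genes, whose RNAs appear within minutes of stimulation and also during tissue dissociation. In enterocyte-like cells 16 of 18 measured genes of an immediate-early and heat shock list were higher under the IE-HuR-/- label and 1, Ier3, was lower. Of all 12333 genes tested there, 30.0% were higher and 30.3% lower. The median log2 fold change of the list was 0.67, against -0.01 for all genes. Without scaling 13 of its genes were higher and 2 lower, where 1801 and 6344 of all genes were. Egr1, an early response transcription factor, stood at 22.5, 20.3 and 23.6 CPM in the controls and at 60.8, 59.4 and 59.2 CPM under the IE-HuR-/- label. Dusp1, a phosphatase that shuts off stress kinases, had 10.1 ± 0.39 CPM in controls and 20.8 ± 1.18 CPM in the other libraries (SD, n = 3). In T or NK-like cells 0 of 17 genes of the list were called higher and 1 lower, and the median was 0.07. Of all genes, 2.02% were called in T or NK-like cells, against 60.3% in enterocyte-like cells. The list counts of these classes can thus not be set side by side. The part of the immediate-early and heat shock list's shift in the Zfp36 difference was not tested.

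Goblet-like cells showed the same signs for the members that differed most. Zfp36 was at 117.8, 122.4 and 103.0 CPM in the controls and at 148.7, 173.7 and 147.8 CPM in libraries labelled IE-HuR-/-, a log2 fold change of 0.65 ± 0.11 (adjusted p = 0.000109). Zfp36l1 was at 71.3, 63.0 and 68.5 CPM against 43.9, 32.8 and 51.6 CPM, with a log2 fold change of -0.46 ± 0.14. Both RNAs separated the labels without overlap, as did 6 of 9 members and 47.2% of all genes tested there. Tial1 fell from 24.97 ± 3.39 CPM to 14.7 ± 1.56 CPM (SD, n = 3), with a scaled log2 fold change of -0.56. Zfp36l2, at 48.3 and 48.1 CPM in the means of the labels, did not pass the test, and neither did Tia1 (-0.48, adjusted p = 0.126). Altogether 3 of 9 members were called in goblet-like cells, 1 higher and 2 lower, where 26.9% of 9271 genes were called, 14.4% higher and 12.5% lower. The Zfp36l1 call was lost without control replicate 1 (adjusted p = 0.0780) or IE-HuR-/- replicate 2 (0.0848), and the Tial1 call without control replicate 3 (0.0513). Thinning all libraries to the lowest total also ended the Zfp36l1 call (0.0697), and leaving out the 10% of cells with the most UMIs ended the Tial1 call (0.0670). Without scaling, Tia1 and Celf1 were called lower as well.

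**Figure D2:**
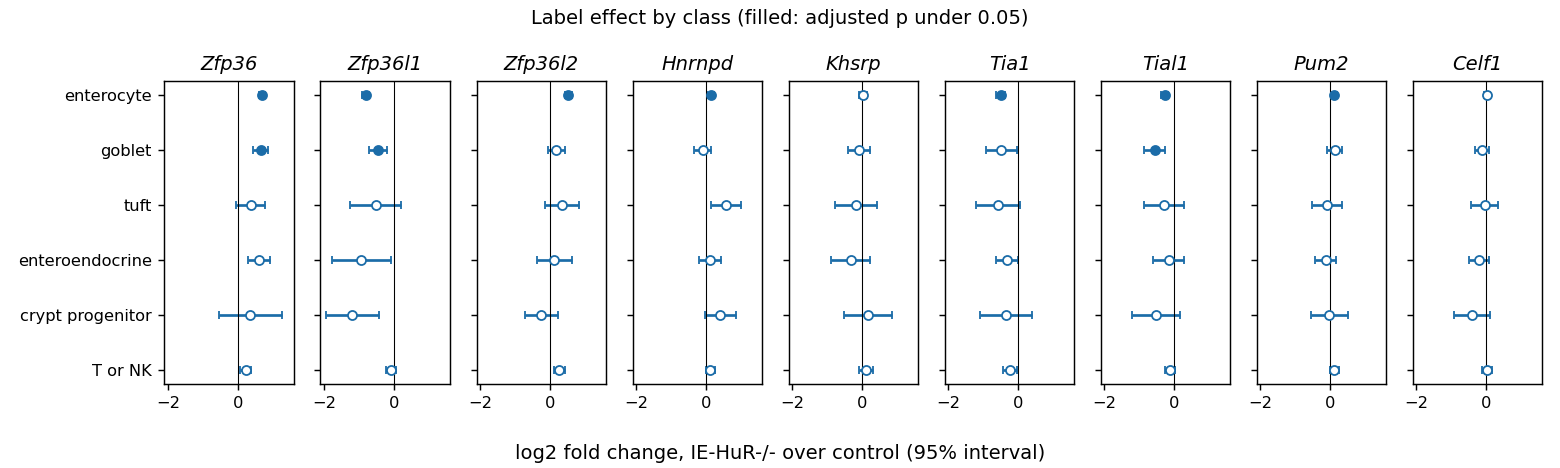
Log2 fold change of each member between the labels (IE-HuR-/- over control, scaled) in 6 classes, with 95% intervals by a normal approximation. Filled points have an adjusted p under 0.05. Zfp36 lies to the right of 0 and Zfp36l1 to the left of 0 in every class drawn, with intervals that widen from 14779 enterocyte-like to 110 crypt progenitor-like cells. Several of these intervals include 0. In B or plasma-like cells, tested but not drawn, Zfp36 had a value of -0.38 and was not called.

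No member was called in the rarer epithelial classes, which held 176 tuft-like, 276 enteroendocrine-like and 110 crypt progenitor-like cells. By edgeR, 1 member reached an unadjusted p under 0.05 in each of the 3: Hnrnpd in tuft-like, Zfp36 in enteroendocrine-like and Zfp36l1 in crypt progenitor-like cells. Of all genes tested, 10.2%, 10.3% and 6.40% did so. DESeq2 called none in these classes. Zfp36 in enteroendocrine-like cells lay at 98.9, 115.1 and 126.9 CPM in controls and at 167.6, 187.2 and 143.9 CPM under the IE-HuR-/- label (log2 fold change 0.60 ± 0.16, adjusted p = 0.142). The groups did not overlap, as was so for 17.1% of all genes there. Zfp36l1 in crypt progenitor-like cells was at 117.1, 84.8 and 46.8 CPM against 34.3, 47.9 and 31.4 CPM, with overlap (-1.19 ± 0.38, adjusted p = 0.393). In these classes 0.589%, 0.369% and 0.157% of all genes were called, so that few calls of any kind were made.

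In the immune classes tested and in erythroid-like cells, which the villin-driven deletion does not target, no member was called. Plasmacytoid dendritic-like cells, also an immune class, were not tested, and their levels are given at the end. T or NK-like cells, intraepithelial and mucosal lymphocytes in this tissue, were deep enough to test all 9: 2.02% of their 11354 genes were called. Zfp36l1 was at 288.9, 239.0 and 278.4 CPM in the controls and at 253.6, 250.8 and 274.7 CPM under the IE-HuR-/- label (log2 fold change -0.07, 95% interval -0.21 to 0.07). Zfp36l2 was at 166.4, 152.7 and 192.4 CPM against 213.5, 193.5 and 218.7 CPM, with a log2 fold change of 0.27 ± 0.08 and an adjusted p of 0.105. The groups just failed to overlap. In all, 4 of 9 members separated the labels there, against 19.3% of all genes tested. Besides Zfp36l2 these were Zfp36 and Hnrnpd, also higher under the IE-HuR-/- label, and Tial1, which was lower. Zfp36 had 67.0 ± 3.93 and 80.0 ± 2.51 CPM (adjusted p = 0.214). The 3 members at an unadjusted p under 0.05 were Zfp36, Zfp36l2 and Tia1, where 14.5% of all genes were, and DESeq2 called none. Enterocyte markers stood in T or NK-like cells at 8.04 to 20.5% of their enterocyte-like level in the controls and at 9.71 to 12.4% under the other label, shares that would carry 11.9 to 31.7 and 20.3 to 27.0 CPM of Zfp36; their part in its T or NK-like level was not tested.

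B or plasma-like cells allowed a test of 7 members, myeloid-like cells of 6 and erythroid-like cells of 3. None was called by edgeR or DESeq2, where 6.69%, 0.200% and 9.90% of all genes were called. At an unadjusted p under 0.05 were 2 members in B or plasma-like cells, Zfp36l1 (-0.53) and Pum2 (-0.74), 1 in myeloid-like cells, Celf1 (-1.02), and 0 in erythroid-like cells. The shares of all genes at that threshold were 22.9%, 8.49% and 21.0%. Pum2 in B or plasma-like cells lay at 174.8, 138.5 and 122.4 CPM in controls and at 94.2, 83.1 and 84.3 CPM under the IE-HuR-/- label. These libraries held 25 to 45 such cells each.

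The difference between epithelium and lymphocytes was tested directly for all members in 1 fit of both classes. The label effect on Zfp36l1 was lower in enterocyte-like than in T or NK-like cells by 0.75 ± 0.09 on the log2 scale (95% interval -0.93 to -0.57, adjusted p = 0.0018). It was the 1 member of 9 called, where 11.2% of 14015 genes were. For Zfp36 the difference was 0.45 ± 0.13 and just missed the threshold (adjusted p = 0.0521), and for Tia1 it was -0.30 ± 0.10 (adjusted p = 0.0798). Zfp36l2, higher under the IE-HuR-/- label in both classes, differed by 0.23 and did not pass the test (adjusted p = 0.173). Its approximate, unadjusted 95% interval was 0.04 to 0.43. For Hnrnpd, Pum2 and Celf1 the intervals ran from -0.20 to 0.17.

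**Figure D3:**
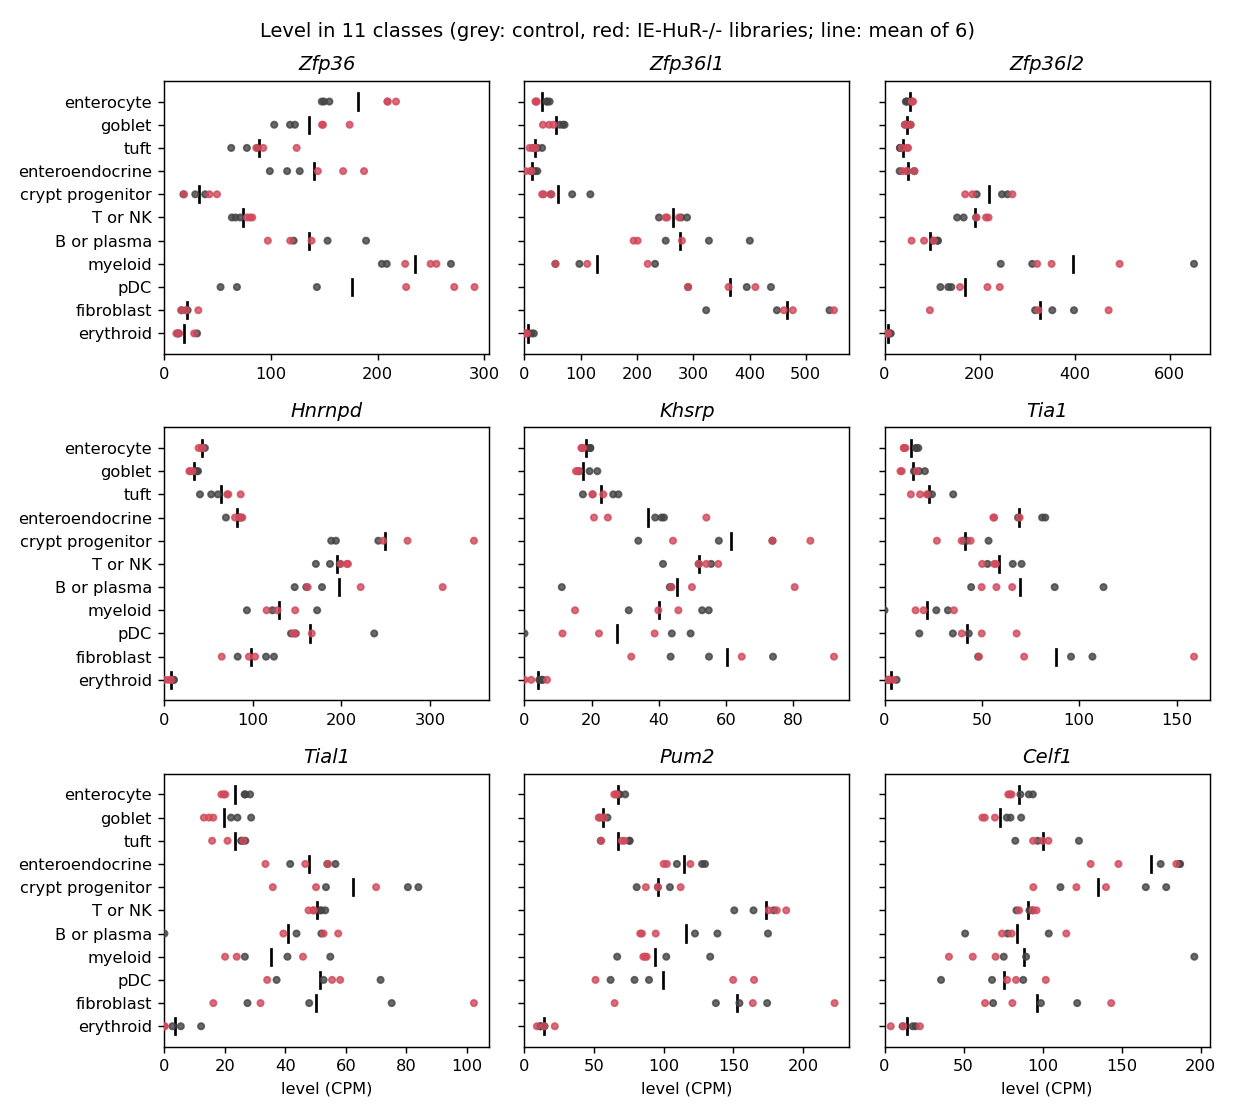
Level of each member in 11 classes, in CPM; each point is 1 library, grey for control and red for IE-HuR-/-, and the line is the mean of 6. Zfp36 is high in myeloid-like and enterocyte-like cells and low in crypt progenitor-like cells, whereas Zfp36l1, Zfp36l2 and Hnrnpd are higher in T or NK-like than in enterocyte-like cells.

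Across 11 classes with at least 50 cells, Zfp36 was the member whose level was higher in enterocyte-like cells than in most other classes. Its mean over 6 libraries was highest in myeloid-like (235.3 ± 26.5 CPM, SD) and enterocyte-like cells (181.3 ± 33.7), and their bands of mean ± 1 SD overlapped. This SD is taken over both labels, so it also holds the difference between them. The order differed between the labels. In controls B or plasma-like cells (154.4 ± 34.0 CPM, n = 3) came between myeloid-like (227.0 ± 36.2) and enterocyte-like cells (150.7 ± 3.64). Under the IE-HuR-/- label plasmacytoid dendritic-like cells (263.1 ± 32.9) stood above myeloid-like (243.5 ± 15.6) and enterocyte-like cells (211.9 ± 4.61). Over all 6 libraries, plasmacytoid dendritic-like, enteroendocrine-like, B or plasma-like and goblet-like cells followed at 175.5 to 135.6 CPM, with overlapping 1 SD bands between neighbours. Tuft-like (88.4 ± 20.4) and T or NK-like cells (73.5 ± 7.71) were lower, and crypt progenitor-like (32.5 ± 12.9), fibroblast-like and erythroid-like cells lowest. Against enterocyte-like cells of the same libraries, Zfp36 was lower by 3.40 on the scaled log2 scale in crypt progenitor-like cells, by 2.20 in T or NK-like and by 1.47 in tuft-like cells. In myeloid-like cells the difference was -0.47 scaled and 0.41 unscaled, and neither passed the test. Which of the myeloid-like and enterocyte-like classes held more Zfp36 thus rests on the scaling.

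Zfp36l1 and Zfp36l2 had another order. Zfp36l1 was highest in fibroblast-like (466.9 ± 82.2 CPM), plasmacytoid dendritic-like (364.6 ± 62.2), B or plasma-like (275.7 ± 78.9) and T or NK-like cells (264.2 ± 19.2), the last of which stood clear of the next class, myeloid-like cells at 128.4 ± 78.7. Crypt progenitor-like (60.4), goblet-like (55.2), enterocyte-like (31.1), tuft-like (19.2), enteroendocrine-like (13.2) and erythroid-like cells (6.82) had bands of mean ± 1 SD that overlapped between neighbours. Within the epithelium, Zfp36l1 was higher in goblet-like than in enterocyte-like cells by 1.00 ± 0.09 and lower in enteroendocrine-like cells by 1.82 on the log2 scale. Zfp36l2 was highest in myeloid-like (395.4 ± 150.0 CPM) and fibroblast-like cells (326.3 ± 126.7), followed by crypt progenitor-like (220.4 ± 42.6) and T or NK-like cells (189.5 ± 25.9). Its 4 mature epithelial classes lay at 39.4 to 52.8 CPM. Against enterocyte-like cells, the log2 difference in tuft-like cells was -0.85 scaled and -0.43 unscaled, and both passed the test. In enteroendocrine-like cells it was -0.76 scaled, which passed, and -0.10 unscaled, which did not. In goblet-like cells neither passed. Crypt progenitor-like cells held more Zfp36l2 than enterocyte-like cells, by 1.18 on the scaled log2 scale, and less Zfp36.

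Hnrnpd, whose AUF1 isoforms are counted here as 1 gene, was highest in crypt progenitor-like cells (249.2 ± 59.3 CPM) and within 1 SD of that in B or plasma-like (197.2) and T or NK-like cells (194.8 ± 13.7). It was at 42.4 ± 2.29 CPM in enterocyte-like and 33.1 ± 4.03 CPM in goblet-like cells, which differed by more than 1 SD. Khsrp ran from 61.5 ± 19.7 CPM in crypt progenitor-like to 17.5 ± 2.52 CPM in goblet-like cells, and neighbours in its order overlapped down to there. Tia1 had its highest means in fibroblast-like (88.3 ± 42.1 CPM), B or plasma-like (69.6 ± 25.9), enteroendocrine-like (69.0 ± 11.5) and T or NK-like cells (58.8 ± 7.78). Their 1 SD bands overlapped between neighbours. Among the epithelial classes it was thus highest in enteroendocrine-like cells, which secrete hormones, against 13.4 ± 3.55 CPM in enterocyte-like cells, a scaled log2 difference of 1.71. Its levels in controls and libraries labelled IE-HuR-/- there were 81.0, 68.6 and 82.6 CPM and 69.4, 56.3 and 55.9 CPM, all above the highest enterocyte-like library at 17.4 CPM. Tial1 varied less, from 62.3 ± 18.9 CPM in crypt progenitor-like to 19.8 ± 6.11 CPM in goblet-like cells. Pum2 was highest in T or NK-like cells (173.1 ± 13.4 CPM), and Celf1 in enteroendocrine-like cells (168.6 ± 23.8 CPM), next to crypt progenitor-like cells at 135.1 ± 32.3. In erythroid-like cells, whose RNA is mostly globin, all members were lowest, at 3.12 to 18.2 CPM.

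In 63 tests of a member in a class against enterocyte-like cells, 41 passed. By class these were 3 of 9 in goblet-like (51.0% of all genes called), 5 in tuft-like (58.2%), 7 in enteroendocrine-like (73.7%), 7 in crypt progenitor-like (72.1%), 9 in T or NK-like (90.0%), 6 in B or plasma-like (65.8%) and 4 in myeloid-like cells (59.3%). None of these shares was set against the background by a test. Scaling matters here, because without it the median gene was 0.98 higher in T or NK-like than in enterocyte-like cells, 0.66 in enteroendocrine-like and 0.58 in crypt progenitor-like cells. In both scalings 24 differences were called higher than in enterocyte-like cells and 9 lower. Of all genes, 56.4% (goblet-like) to 91.3% (T or NK-like) were called without scaling, in either direction. The share called in the same direction in both scalings was not worked out, so nothing particular to the members follows from these counts. The 9 lower ones were 5 of Zfp36, 2 of Zfp36l1, 1 of Zfp36l2 and 1 of Hnrnpd. Celf1 in T or NK-like cells was -0.81 scaled and 0.10 unscaled (90.7 ± 5.14 against 84.9 ± 6.58 CPM), and Pum2 in crypt progenitor-like cells -0.37 and 0.51, so their direction rests on the scaling. The same was so for Celf1 in B or plasma-like cells (-0.60 and 0.02) and Tial1 in tuft-like cells (-0.40 and 0.01).

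The genes whose class means ran most like each member were sought among 12735 genes by Pearson's r over the 11 classes, a description of 11 points that share libraries and depth. For Zfp36 they were Map2k1 (0.934), a kinase of the ERK pathway, Fos (0.929), an early response transcription factor, and Il4ra (0.924). For Zfp36l1 they were Tgfbr2, the TGF-β receptor subunit (0.962), Polh (0.937) and Ly6e (0.934). Zfp36l2 ran most like Cdk2ap2 (0.969), Gnl2 and Pts. Hnrnpd gave the closest likeness of all members, with Ebna1bp2 (0.994), Pspc1 (0.992) and Snrpd3 (0.991), genes of ribosome assembly, nuclear paraspeckles and the spliceosome. Khsrp was nearest to Proser1 (0.984), Tia1 to Unk (0.978), Pum2 to Cdc40 (0.979) and Celf1 to the translation factor gene Eif4g1 (0.980). Tial1 ran with Dhx9 (0.986), Pcbp2 (0.984) and Ccar1 (0.981).

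**Figure D4:**
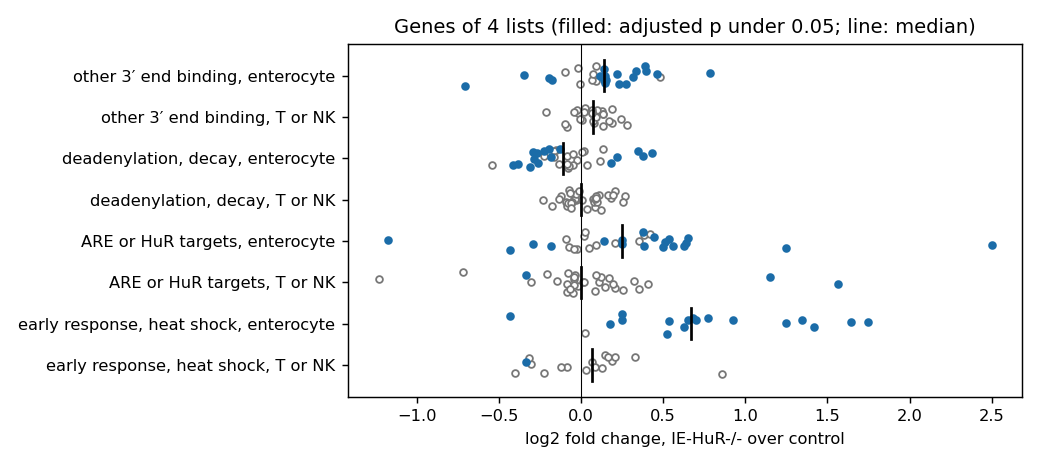
Log2 fold change between the labels (IE-HuR-/- over control, scaled) for the genes of 4 lists in enterocyte-like and T or NK-like cells; each point is a gene, filled where the adjusted p is under 0.05, and the line is the median. The immediate-early and heat shock genes have a median of 0.67 in enterocyte-like cells and 0.07 in T or NK-like cells.

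Further genes of the same machinery were followed in enterocyte-like cells. Of 27 other proteins that bind AU-rich elements or 3′ ends, 15 were higher under the IE-HuR-/- label and 4 lower. Of all genes tested, 30.0% were higher and 30.3% lower. Elavl1, given above and called only with scaling, is 1 of the 15. The median log2 fold change of the list was 0.14. Without scaling 6 were higher and 11 lower, where 1801 and 6344 of 12333 genes were. The balance of this list thus depends on the scaling. Zc3h12a, an endonuclease that cuts inflammatory mRNAs, rose most among those of at least 20 CPM, from 24.0 ± 0.86 to 35.9 ± 1.11 CPM (SD, n = 3). Its scaled log2 fold change was 0.79. Ybx1, an mRNA-packaging protein, rose from 343.5 ± 5.43 to 410.6 ± 18.7 CPM. Pcbp2, a poly(C)-binding protein's RNA, fell from 156.6 ± 3.40 to 119.1 ± 2.90 CPM, with a scaled log2 fold change of -0.19. In T or NK-like cells edgeR called 0 of 27, where 2.02% of all genes were called.

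Deadenylation, decapping and the exosome carry out the decay that Zfp36 proteins start. Among 34 tested genes of these steps, 5 were higher and 11 lower, with a median of -0.11. Of all genes tested, 30.0% were higher and 30.3% lower. Without scaling 3 of the list were higher and 24 lower, where 1801 and 6344 of 12333 genes were. These counts were not tested against the background. Cnot6, a catalytic deadenylase, stood at 43.6 ± 1.18 CPM in the controls and at 49.3 ± 0.055 CPM under the IE-HuR-/- label (log2 fold change 0.38). Pan3, a partner of the Pan2 deadenylase, had 0.35. Xrn1, the 5′ to 3′ exonuclease, fell from 48.8 ± 4.33 to 34.3 ± 0.33 CPM (scaled log2 fold change -0.31). Pabpc1, the poly(A)-binding protein, fell from 301.3 ± 14.9 to 239.4 ± 6.46 CPM (-0.13 on that scale). These rose or fell most among called genes of at least 20 CPM under 1 label. The called genes of lower level included Pan2 itself (-0.39) and Parn (-0.41), which were lower, and Cnot9 (0.43), which was higher. T or NK-like cells again gave 0 calls by edgeR, among 34 genes, where 2.02% of all genes were called.

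The list of textbook mRNAs that carry AU-rich elements or are described as HuR targets held 40 genes. In enterocyte-like cells 31 of them were tested. Phb is on the list, although the study found no specific binding of HuR to this mRNA (its Phb1) in Caco-2 cells. Of the 31, 15 were higher and 4 lower, with a median of 0.25, where 30.0% and 30.3% of all genes were. Without scaling 12 were higher and 8 lower, where 1801 and 6344 of 12333 genes were. The list shares Dusp1, Btg2, Jun, Jund, Fos and Ier3 with the immediate-early list. Btg2, an antiproliferative early response gene, rose from 157.6 ± 4.13 to 215.0 ± 3.01 CPM, and Dusp1, given above, rose most among those of at least 20 CPM. Npm1, a nucleolar chaperone, fell from 34.1 ± 1.08 to 24.2 ± 2.27 CPM (scaled log2 fold change -0.29). Vegfa, an angiogenic growth factor, fell from 106.3 ± 2.45 to 81.3 ± 2.50 CPM (-0.18 on that scale). These were the largest falls by the same limit. The called genes of lower level included Ccnd1 (2.50), which was higher, and Stim1 (-1.17) and Ier3 (-0.43), which were lower. In T or NK-like cells 2 of 32 were higher and 1 lower, where 2.02% of all genes were called in either direction. These lists were drawn up with earlier results of the data known, so their counts are descriptions.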

How the data were processed

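Each library was deposited as a sparse matrix of UMI counts per gene and barcode, which the authors made with Cell Ranger (6.1.2 per the file headers; the labels name mm10 and a 5′ kit, whereas the study's methods give a 3′ kit, an older release and a human reference). Barcodes with at least 2000 UMIs and 200 genes were classed by fixed markers: at least 3 distinct markers (5 for enterocyte-like) and a minimum share of UMIs from them. The 75 cells that met several classes were left out, and no doublet caller was run. Raw counts were summed per library and class and tested with edgeR 4.0.16 (R 4.3.3; quasi-likelihood, TMM, genes kept by filterByExpr at a count of 10 and a total of 15), with Benjamini-Hochberg adjustment over all genes of a fit and a threshold of 0.05. Class differences and the class-by-label term used the library as a block. Each 95% interval was drawn from the estimate and its SE by a normal approximation, without adjustment over genes. With few libraries it is too narrow, so it can leave out 0 where the unadjusted p is above 0.05. The script was tested on simulated counts. The study gives 3 animals per group for these data, taken here as 1 library each. No 2 libraries of a label were copies (chi-square per degree of freedom 5.41 to 13.7). Same-numbered libraries did not deviate together (r from -0.17 to -0.02 in enterocyte-like cells), so numbers were not used to pair. Alternatives were DESeq2 1.42.0, other scaling, filters, gates, thinning and leaving out libraries; the lower cell minimum of 1000 UMIs and the villus-tip split were added after seeing the data. The 9 members and the gene lists were chosen with earlier results of these data known, and 1 list symbol, Pat1l, matched no gene. Named list genes were the 2 largest rises and falls called with at least 20 CPM under 1 label, of which 1 is not reported here; likeness used class means of log2(CPM + 5), among genes of at least 10 CPM in 1 class. UTRs came from GENCODE M21, 1 transcript per gene, the principal form with the longest 3′ UTR.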

Additional observations from a re-analysis of the deposited data

Results flagged for a closer look

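Zfp36l1 differed in its label effect between enterocyte-like and T or NK-like cells by a test of the difference itself (-0.75 on the log2 scale, adjusted p = 0.0018 by edgeR): it was lower in 3 of 3 libraries labelled IE-HuR-/- than in any control in enterocyte-like cells and overlapped between labels in T or NK-like cells. Leaving out any 1 library kept it called, with adjusted p from 4.52e-06 to 0.0239, and without scaling the difference was -0.96. Elavl1 RNA was not lower in enterocyte-like cells under that label, so within these libraries the direction rests on the labels. By immunostaining, the study reports a near loss of HuR protein from epithelial cells of mice with this deletion. It also describes HuR as undetectable in their small intestinal and colonic mucosa. Protein was not measured in the libraries themselves. Groups of 3 libraries are too small for a check of single outlying libraries.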

How the results depend on the processing

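Zfp36, Zfp36l1, Zfp36l2, Tia1 and Tial1 kept direction and call in enterocyte-like cells in all 17 alternatives, as did Zfp36 in goblet-like cells in all 15. Members called numbered 5 to 7 in enterocyte-like and 2 to 5 in goblet-like cells. Without TMM scaling, values turned for Hnrnpd (-0.077), Khsrp (-0.18), Pum2 (-0.086) and Celf1 (-0.19) in enterocyte-like cells. Among the class differences called with scaling, those of Tial1 in tuft-like (0.0089), Pum2 in crypt progenitor-like (0.51), Celf1 in T or NK-like (0.098) and Celf1 in B or plasma-like cells (0.020) turned. Values near 0 also turned for Khsrp without the filter on low counts (-0.017), without the 10% of cells with the most UMIs (-0.017) and in villus-tip-high cells (-0.017), for Hnrnpd in villus-tip-high cells (-0.0024), and for Celf1 without the filter (-0.021), with stricter cell quality (-0.015), without the 10% of cells with the most UMIs (-0.018) and without control replicate 3 (-0.020); leaving out 1 library gave Celf1 -0.020 to 0.034. The Hnrnpd call was lost in 8 further alternatives and the Pum2 call in 6, among them leaving out control replicate 2 or 3. Members called moved from 3 to 5 in goblet-like cells without scaling, from 0 to 1 (Zfp36) in enteroendocrine-like cells without the filter, and from 0 to 1 (Zfp36l2) in T or NK-like cells without the filter or without the 10% of cells with the most UMIs. Over all genes, the calls went from 2495 to 3115, from 32 to 303, and from 229 to 753 or 484 in these settings. Leaving out 1 library gave 0 to 1 in T or NK-like cells (Tia1 without control replicate 2, Zfp36l2 without control replicate 3). There 458 and 614 of all genes were called. For the difference between enterocyte-like and T or NK-like cells the count went from 1 to 3 without scaling and to 2 with stricter cell quality, and from 1 to 2 on leaving out 1 library (Zfp36 was added without control replicate 2 or 3). Over all genes 1569 were called in the main fit, 2584 without scaling and 1546 with stricter cell quality. Without control replicate 2 or 3 they numbered 2022 and 1982. The cause was not tested. With the replicate block, which the pairing check did not bear out, 7 members were called in enterocyte-like, 3 in goblet-like and 0 in T or NK-like cells, and the count over all genes in enterocyte-like cells was 7415. Depth limits the rarer classes: 10 to 26 crypt progenitor-like and 11 to 25 myeloid-like cells per library.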

Other observations

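In plasmacytoid dendritic-like cells (14 to 27 per library, a class for which no test was planned), Zfp36 stood at 52.7, 68.0 and 143.0 CPM in the controls and at 290.8, 226.7 and 271.8 CPM in the libraries labelled IE-HuR-/-, without overlap, on 152 UMIs in all. Zfp36l2 was at 140.4, 117.5 and 134.1 CPM against 242.3, 158.7 and 216.4 CPM there, also without overlap, as was so for 10.2% of the 2098 genes of enough counts there. Fibroblast-like cells (74 in all) numbered only 6, 4 and 6 in the libraries labelled IE-HuR-/-. No member separated the labels in them, but the share of all genes was not worked out there, so nothing follows about the members. Paneth-like cells numbered 13 in all, and 3 to 28 UMIs per member were counted in them, so no level is given. Barcodes of under 1000 UMIs, which were put in no class, showed Zfp36l1 at 62.9, 53.0 and 43.4 CPM in controls and at 23.9, 26.5 and 28.8 CPM under the IE-HuR-/- label, and Zfp36 at 76.2, 104.8 and 105.3 CPM against 127.4, 129.2 and 132.1 CPM.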
